A study of Homo sapiens with 6 samples.

Results

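The 6 mature miRNAs described here, hsa-miR-191-5p, hsa-miR-191-3p, hsa-miR-425-5p, hsa-miR-425-3p, hsa-miR-423-5p and hsa-miR-423-3p, are both arms of 3 hairpins and were chosen by name because miRNAs of these hairpins are broadly expressed and widely used as reference small RNAs. All 6 are among the 2588 miRNAs listed in the count table, 4 had counts and were tested, and both arms of miR-423 were listed at 0 in every library. The samples are Caco-2 cells, an established line from a colorectal adenocarcinoma, which received no treatment. Total RNA was decapped, heat-denatured and either kept as input (3 libraries) or immunoprecipitated with an antibody against 7-methylguanosine (m7G) and released with 7-methyl-GTP (m7G-RIP, 3 libraries). The comparison asks which miRNAs the antibody enriches. No library made with a control antibody was analysed here, and nothing in the labels says that the replicates came from separate cultures, so p-values measure only the spread between these libraries.

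A miRNA hairpin is cut first by DROSHA and then by DICER into a duplex of 5p and 3p arms, of which the arm kept by Argonaute is usually the abundant one and the other is degraded. Both arms and neighbouring hairpins of 1 transcript therefore share their transcription but not their sequence, their stability or their modification. m7G is known from the mRNA cap and from internal positions of tRNA and rRNA. miR-191 is altered in many solid tumors, and miR-423-5p has been studied as a circulating marker of heart failure.

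The sequences below show what each row of the table counts, with the seed, bases 2 to 8, in capitals. They are the RefSeq mature miRNAs on GRCh38.p14, from 5′ to 3′, and 5 of the 6 members matched an entry, all but miR-425-5p.
miR-191-5p: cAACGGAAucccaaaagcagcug
miR-191-3p: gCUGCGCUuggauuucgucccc
miR-425-3p: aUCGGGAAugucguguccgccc
miR-423-5p: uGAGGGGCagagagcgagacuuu
miR-423-3p: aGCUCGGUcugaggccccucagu
No other listed miRNA with a sequence had the seed of miR-191-5p, miR-191-3p, miR-425-3p or miR-423-3p, and the seed of miR-423-5p was shared with miR-3184-5p alone.

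On GRCh38 the hairpin of miR-191 spans 49020618 to 49020709 of chromosome 3, minus strand, and that of miR-425 spans 49020148 to 49020234 of the same strand, with 383 bases between them. In GENCODE release 44 both lie inside DALRD3, a protein-coding gene with a role in tRNA methylation, and overlap none of its exons. The miR-191 hairpin also lies opposite an intron of NDUFAF3, an assembly factor of a mitochondrial respiratory complex. The hairpin of miR-423 lies on chromosome 17 from 30117079 to 30117172 on the plus strand, inside NSRP1, which encodes a splicing regulator. It falls within an untranslated exon of transcript NSRP1-214 and inside, but outside the exons of, most other NSRP1 transcripts.

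The counts on miRNAs summed to between 16466178 and 19628046 in the input and between 1654102 and 3105129 in m7G-RIP. edgeR's quasi-likelihood test was run on 800 miRNAs and, with Benjamini-Hochberg adjusted p-values under 0.05, called 321 (40.1%) enriched by the antibody and 305 (38.1%) depleted. Total counts in place of TMM raised the median log2 enrichment by 1.09 and gave 442 enriched and 198 depleted miRNAs. Values below are CPM, counts scaled by library total and TMM factor, unless stated otherwise.

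miR-191-5p rose in m7G-RIP while both arms of miR-425, its neighbour within the same gene, fell. These directions were the same with TMM, DESeq2 size factors, upper-quartile factors and total counts, whereas scaling to the count of miR-191-5p or of miR-425-5p fixes that miRNA at no change, and with the latter miR-425-3p was at 0.31 and not called. Of the 4 arms tested, 1 was enriched and 2 depleted, and miR-191-3p was not called. Of the members, miR-191-5p was 3.04-fold higher in m7G-RIP than in the input, miR-425-5p 7.28-fold lower and miR-425-3p 5.83-fold lower.

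miR-191-5p, the guide arm of its hairpin, had 4222, 4346 and 4367 CPM in input replicates 1, 2 and 3 and 13619, 14776 and 10868 CPM in m7G-RIP replicates 1, 2 and 3. The groups did not overlap, and the lowest m7G-RIP library, replicate 3, was also the shallowest. The raw counts behind these values were 49523, 55471 and 50051 in the input and 56100, 65623 and 29498 in m7G-RIP. The mean was 4312 ± 78.4 CPM in the input and 13088 ± 2008 CPM after immunoprecipitation (SD, n = 3 each). On the log2 scale miR-191-5p rose by 1.60 with a standard error of 0.15 (edgeR test, adjusted p = 4.37e-07). As a share of all counts it was 0.295% ± 0.0109 (SD, n = 3) of the input and 1.90% ± 0.182 (SD, n = 3) of m7G-RIP. By mean level it moved from position 31 to position 12 among the 800 tested miRNAs.

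miR-191-3p, the passenger arm, is rare in these cells. It had 133, 138 and 123 counts in the input, against 51, 54 and 17 after immunoprecipitation, or 11.3, 10.8 and 10.7 CPM against 12.4, 12.2 and 6.26 CPM. The groups overlapped, and m7G-RIP replicate 3 stood below all other libraries. Its log2 enrichment was -0.07 (95% interval -0.75 to 0.61, adjusted p = 0.849 from the edgeR test). With TMM scaling, a change within that interval in either direction thus remains possible. Without m7G-RIP replicate 3 the value was 0.08, with upper-quartile factors it was 0.76 (adjusted p = 0.0449 from the edgeR test), and with total counts it was 1.00 and past the threshold (adjusted p = 0.0113 from the edgeR test).

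miR-425-5p, the guide arm of the second hairpin, had 1268, 1123 and 1138 CPM in the input, and 188, 158 and 138 CPM in m7G-RIP. Every m7G-RIP library lay far below every input library, with counts of 14874, 14340 and 13045 against 776, 701 and 375. On the log2 scale it changed by -2.86 with a standard error of 0.16 (edgeR test, adjusted p = 3.05e-09), and its position by mean level went from 60 to 125 of 800. Its passenger arm behaved alike. miR-425-3p had 84.2, 83.5 and 88.6 CPM in the input and 15.8, 15.3 and 12.5 CPM in m7G-RIP, again without overlap, on counts of 988, 1066 and 1015 against 65, 68 and 34. The change was -2.54 with a standard error of 0.20 on the log2 scale (edgeR test, adjusted p = 1.04e-07).

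**Figure D1:**
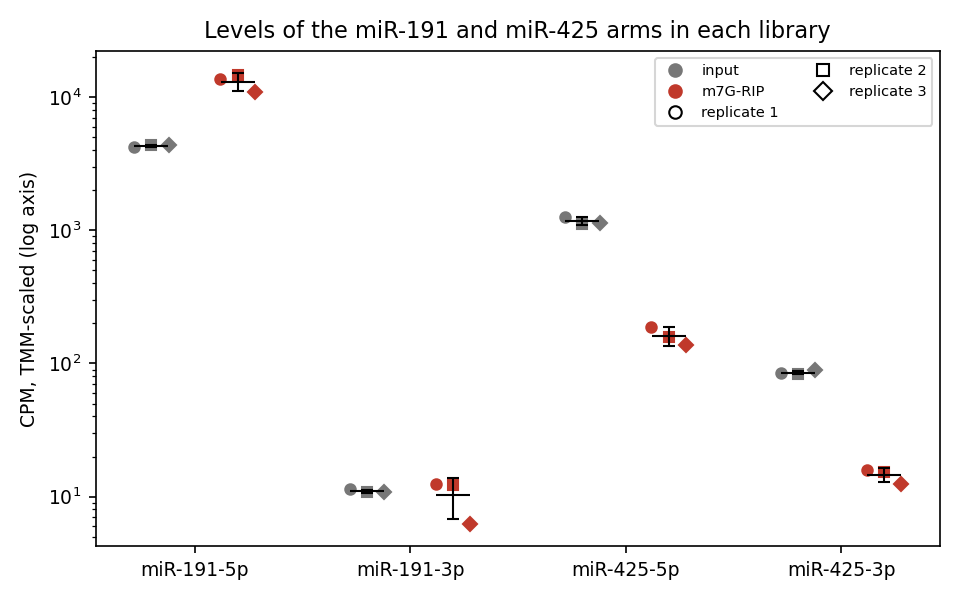
Level of each tested member in the 6 libraries, as TMM-scaled CPM on a log axis. Points are single libraries (marker shape gives the replicate), and bars are the mean ± SD of 3. miR-191-5p sits higher in m7G-RIP, both miR-425 arms sit lower, and the 2 groups of miR-191-3p overlap.

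The order of the 4 arms by mean level was the same in both groups, miR-191-5p, miR-425-5p, miR-425-3p and miR-191-3p, but its spacing differed. A read covers a whole mature miRNA, so these counts were not scaled by length. In the input the lowest neighbours, miR-425-3p and miR-191-3p, were at 85.4 ± 2.74 and 11.0 ± 0.330 CPM (SD, n = 3 each). In m7G-RIP they were at 14.5 ± 1.76 and 10.3 ± 3.47 CPM (SD, n = 3 each), a distance smaller than the sum of their SDs.

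Ratios of 2 members within a library do not depend on how libraries are scaled. miR-191-5p had 3.33, 3.87 and 3.84 reads for each read of miR-425-5p in the input, and 72.2, 93.5 and 78.6 in m7G-RIP (0.5 was added to each count). The lowest m7G-RIP ratio was thus far above the highest input ratio, and the mean log2 ratio rose from 1.88 ± 0.12 (SD, n = 3) to 6.34 ± 0.19 (SD, n = 3). The difference of 4.46 is a 22.1-fold change (exact permutation test, two-sided, p = 0.1, adjusted p = 0.1 over 3 ratios, the smallest value that 3 against 3 libraries allow). The passenger arms moved in the same direction, with miR-191-3p at 0.135, 0.130 and 0.122 reads for each read of miR-425-3p in the input and at 0.786, 0.796 and 0.507 in m7G-RIP. That log2 difference was 2.41 (exact permutation test, two-sided, p = 0.1, adjusted p = 0.1). For the summed arms of each hairpin it was 4.44 (exact permutation test, two-sided, p = 0.1, adjusted p = 0.1).

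A fit across all neighbouring hairpins, added after the data were seen, set the miR-191 and miR-425 pair beside others. Hairpins on 1 strand with under 10000 bases between them gave 54 pairs of adjacent hairpins, each represented by its more abundant arm in the input. The ratio of the pair changed between m7G-RIP and input at an adjusted p-value under 0.05 in 41 of them (75.9%, limma on log2 ratios). For miR-191-5p over miR-425-5p the change was 4.46 (standard error 0.16, adjusted p = 1.16e-09 from limma), the 8th largest in size of 54. The median absolute difference in log2 enrichment within a pair was 2.16, and in 13 of the 54 pairs, this one included, the neighbours were called in opposite directions. Over all 800 tested miRNAs, 40.1% were enriched and 38.1% depleted, so opposite calls can also be met in pairs that are not neighbours, which were not compared. Unequal enrichment was thus common in these pairs, without being shown as particular to neighbours, and this pair was toward its upper end.

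**Figure D2:**
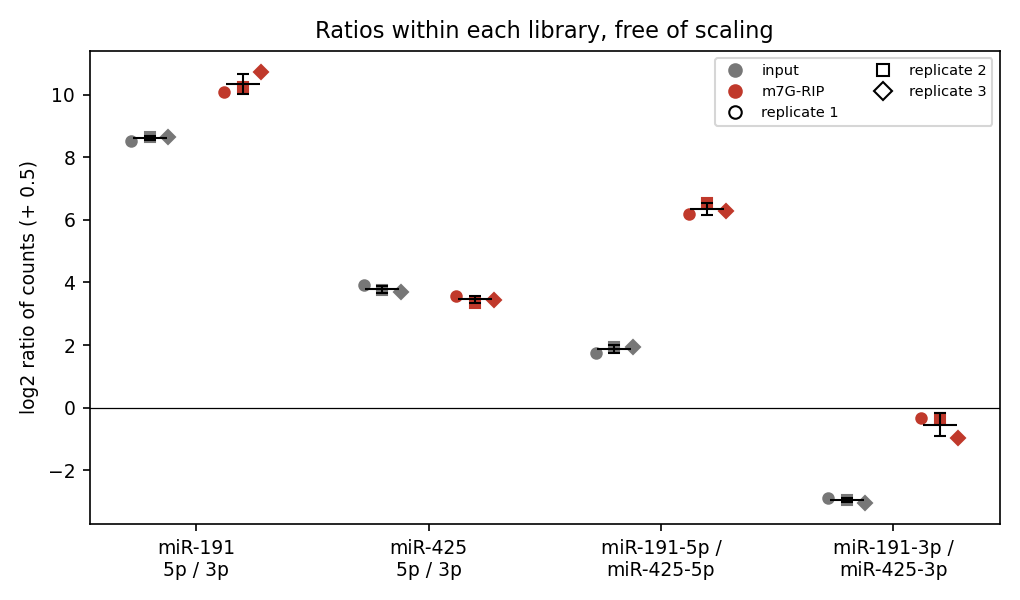
Log2 ratios of counts (0.5 added) within each library, between the arms of a hairpin and between hairpins. Points are libraries, bars mean ± SD of 3, and each ratio is free of library scaling. The ratio of miR-191-5p to miR-425-5p shifts by 4.46 between the groups, while the miR-425 arm ratio shifts by -0.33.

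Between arms of a hairpin the balance changed for miR-191 and not detectably for miR-425. The 5p arm made up 99.7% ± 0.0123 (SD, n = 3) of miR-191 counts in the input and 99.9% ± 0.0172 (SD, n = 3) in m7G-RIP. miR-191-5p had 371, 401 and 405 reads for each 3p read in the input and 1089, 1204 and 1686 in m7G-RIP, without overlap. The highest of these ratios, in m7G-RIP replicate 3, rests on 17 reads of the 3p arm. On the log2 scale the ratio rose by 1.73 (standard error 0.20, adjusted p = 0.000292 from limma), and by 1.55 to 1.86 with each library left out in turn. For miR-425 the 5p arm made up 93.2% ± 0.508 (SD, n = 3) of counts in the input and 91.7% ± 0.557 (SD, n = 3) in m7G-RIP. The log2 ratio changed by -0.33 (95% interval -0.76 to 0.11, adjusted p = 0.157 from limma), which did not pass the threshold.

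Across 194 hairpins with both arms tested, the 5p to 3p ratio changed at a limma adjusted p-value under 0.05 in 133 (68.6%), toward 5p in 91 (46.9%) and toward 3p in 42 (21.6%). The call of miR-191 toward 5p is thus of the more common kind, and its size was position 113 of 194. The change for miR-425 was position 180 of 194 in size, where the median absolute change was 2.14. The largest called changes were those of miR-3144 toward 5p, at 8.23, and of miR-616 toward 3p, at -7.00. In both, 1 arm had 0 counts in 2 of the m7G-RIP libraries, so that these sizes, and their place as the largest, rest on the 0.5 added to each count.

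**Figure D3:**
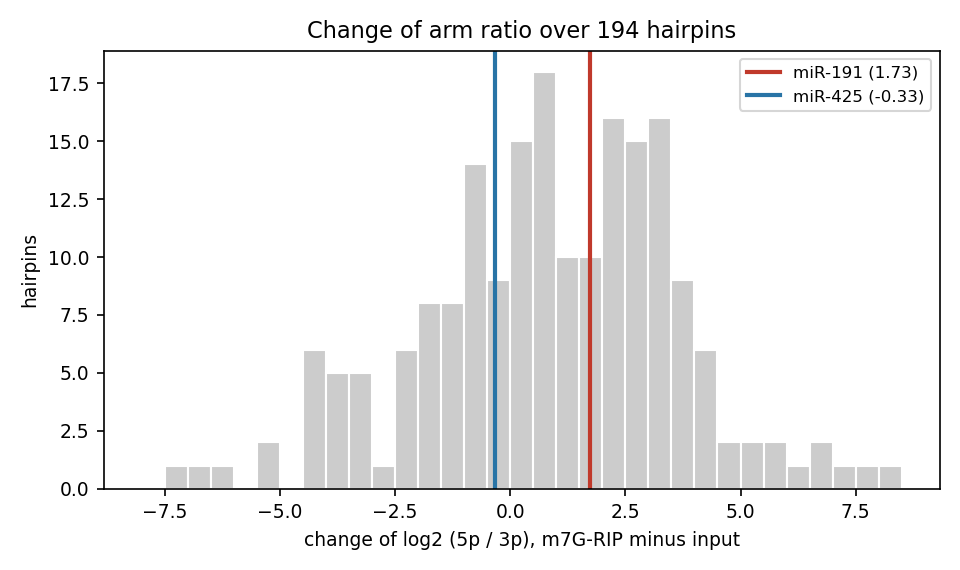
Change of the log2 5p to 3p ratio from input to m7G-RIP for 194 hairpins (0.5 added to each count), as a histogram of hairpins per bin. The lines mark miR-191, at 1.73, and miR-425, at -0.33; hairpins range from -7.00 to 8.23.

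Low variation between replicates is a property looked for in reference small RNAs. The coefficient of variation of miR-191-5p in the input was 1.82%, the 24th lowest of 800, where the median of all tested miRNAs was 13.6%. The value of miR-191-3p was 3.01%, of miR-425-3p 3.20% and of miR-425-5p 6.76%. The 198 miRNAs at least as abundant as miR-425-3p in the input, which leave out miR-191-3p, had a median of 5.21%. miR-191-3p had 133, 138 and 123 input counts, where counting error alone gives a larger spread than 3.01%, so this value is no sign of low variation. For miR-425-3p, on 988, 1066 and 1015 counts, counting error alone gives a spread of about the size seen. In m7G-RIP the coefficient of variation was 15.3% for miR-191-5p, 15.7% for miR-425-5p, 12.1% for miR-425-3p and 33.8% for miR-191-3p, beside a median of 34.4% over all tested miRNAs and of 16.9% over the 198 abundant ones. These values depend on the scaling. With CPM of total counts they were 3.71% for miR-191-5p, 6.38% for miR-191-3p, 6.42% for miR-425-3p and 10.2% for miR-425-5p in the input. In m7G-RIP they were then 9.54% for miR-191-5p, 6.17% for miR-425-5p, 3.21% for miR-425-3p and 26.3% for miR-191-3p. With 3 libraries a group these values are imprecise, and they are a description without a test.

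The choice of reference sets where the zero of enrichment lies. Of 800 tested miRNAs, 242 had a higher log2 enrichment than miR-191-5p and 557 a lower one. For miR-425-5p these numbers were 653 and 146. With each library scaled to its miR-191-5p count, 129 miRNAs were enriched and 454 depleted (edgeR's quasi-likelihood test, adjusted p-value under 0.05, a setting chosen after the data were seen). With each library scaled to its miR-425-5p count, the numbers were 587 and 75.

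Other miRNAs in common use as references also differed between input and m7G-RIP. Of 19 such miRNAs listed, 18 were tested, 4 were enriched, 11 depleted and 3 not called. Over all 800 tested miRNAs, 626 (78.2%) were called, 40.1% enriched and 38.1% depleted, so being called does not set the references apart. The median log2 enrichment of the references was -1.03, where that of all tested miRNAs was 0.16. The tested references ranged from 2.60 for miR-320a to -5.08 for miR-30e-5p, a member of the miR-30 family. The lowest sizes were those of let-7i-5p, at -0.00138 (edgeR test, standard error 0.16, adjusted p = 0.993), and of miR-26a-5p, at 0.15 (edgeR test, standard error 0.19, adjusted p = 0.482). Since total counts raised the median of all tested miRNAs by 1.09, the reference nearest to 0 depends on the scaling.

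**Figure D4:**
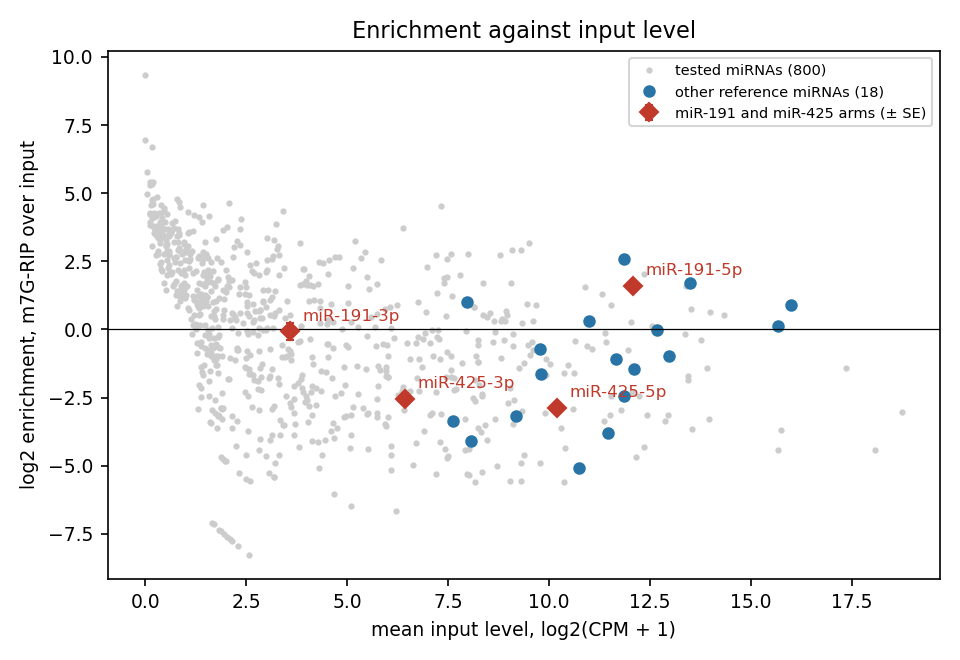
Log2 enrichment of m7G-RIP over input against the mean input level, log2(CPM + 1), for 800 tested miRNAs (grey), 18 other reference miRNAs (blue) and the 4 tested members (red, ± standard error). miR-191-5p lies at 1.60, miR-191-3p at -0.07, miR-425-3p at -2.54 and miR-425-5p at -2.86, and the other references range from -5.08 to 2.60.

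The miRNAs whose profile over the 6 libraries was most like that of miR-191-5p were miR-182-5p, let-7a-5p and miR-92b-3p, by the root mean square distance of centred log2 CPM (0.07, 0.10 and 0.14) among 264 miRNAs whose log2 CPM averaged 5 or more. For miR-425-5p they were miR-378a-5p, miR-30a-5p and miR-372-3p (0.10, 0.12 and 0.13). For miR-425-3p they were miR-452-5p, miR-93-5p and miR-30c-5p (0.07, 0.10 and 0.11). For miR-191-3p they were miR-302a-5p, miR-503-5p and miR-26a-5p (0.10, 0.18 and 0.19), among 265. With 2 groups of 3 libraries such likeness mostly reflects a similar log2 enrichment.

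Base composition could be read for 3 of the tested members only, since miR-425-5p had no sequence entry, and of these 3 the enriched arm was the poorest in G. As printed above, miR-191-5p has 5 G in 23 bases (21.7%), miR-191-3p 6 in 22 (27.3%) and miR-425-3p 7 in 22 (31.8%), and the longest run of G is 2, 2 and 3 bases. Of 714 tested miRNAs with a sequence, 206 had a lower G share than miR-191-5p and 408 a lower one than miR-425-3p, around a median of 27.3%. Across these 714 miRNAs G share and log2 enrichment had a Spearman correlation of 0.497, given as a description of miRNAs that share the same 6 libraries. Within these 3 members alone, the depleted miR-425-3p had the higher G share and the enriched miR-191-5p the lower, the reverse of that order. The most depleted of the tested members, miR-425-5p, with a log2 enrichment of -2.86, matched no sequence entry. Whether it follows that order was therefore not tested, and the members as a set cannot be placed in it.

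miR-423-5p and miR-423-3p could not be compared, since both were listed at 0 in all 6 libraries. At these depths a count of 0 allows up to 3 counts, or 0.153 to 0.182 CPM of total counts in the input libraries and 0.966 to 1.81 CPM in those of m7G-RIP, for counting error only. These limits do not cover reads lost before or during counting. Of the 2588 listed miRNAs, 844 were at 0 in every library.

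On the opposite strand of the miR-423 hairpin lies that of miR-3184, from 30117086 to 30117160 on chromosome 17. Its arms are shown because they cover the same bases as those of miR-423, read from the other strand.
miR-3184-5p: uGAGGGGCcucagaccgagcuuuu
miR-3184-3p: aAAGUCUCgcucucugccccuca
miR-423-5p, from 30117095 to 30117117, shares all 23 positions with miR-3184-3p, and miR-423-3p, from 30117131 to 30117153, shares 21 with miR-3184-5p. Both arms of miR-3184 were also listed at 0 in all 6 libraries.

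The same held for most miRNAs with an opposite-strand partner. Of 78 listed miRNAs that another mature miRNA overlaps on the opposite strand by 15 or more bases at every locus, 72 (92.3%) were at 0 in every library. Of 2198 with no opposite-strand mature miRNA, 648 (29.5%) were. The remaining 5 were not overlapped to that length at every locus, and 3 of them were at 0. These counts cover the 2281 listed miRNAs with a RefSeq position, and a partner without one would be missed. The one untested miRNA of the other references, miR-103a-3p, is among the 72, opposite miR-103b at both of its loci. The libraries were stranded per the study's methods. Whether reads were assigned to miRNAs by strand, or dropped where 2 miRNAs overlap, is not given in the sources used here, and its part in the values of miR-423 was not tested. A value of 0 here is no measurement of whether Caco-2 cells express miR-423.

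**Figure D5:**
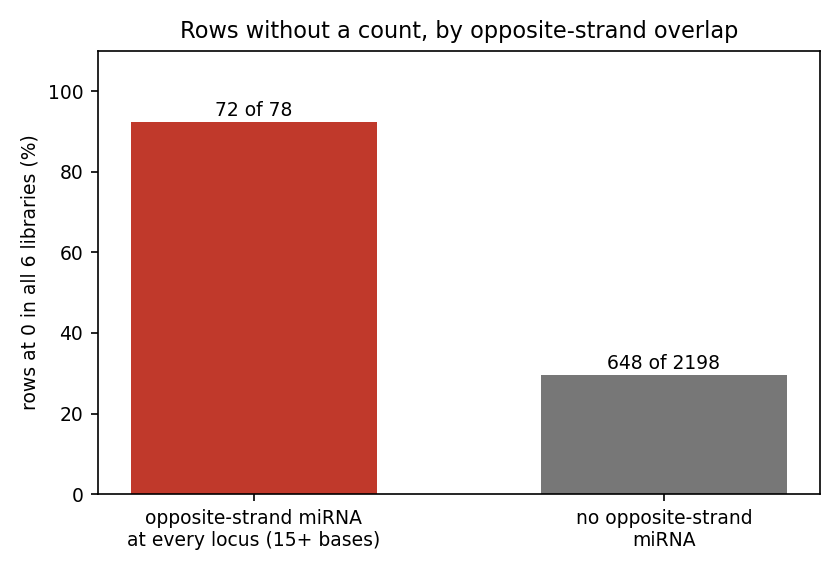
Share of listed miRNAs at 0 in all 6 libraries, in percent, for those overlapped on the opposite strand at every locus by another mature miRNA (72 of 78) and for those with no opposite-strand mature miRNA (648 of 2198). Both arms of miR-423 and both arms of miR-3184 are in the first bar.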

How the data were processed

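Small RNA libraries of 3 input and 3 m7G-RIP samples of Caco-2 cells were analysed. The authors deposited raw read counts per mature miRNA, without normalization or pooling. Adaptors were trimmed with Trimmomatic, and reads were mapped to GRCh38 (with STAR per the study's methods, with Bowtie2 per the submitters' processing notes). They were counted with featureCounts, on miRBase release 22 per the study's methods. Reads could map to several loci, which makes counts of near-identical miRNAs uncertain; reads carry no molecular identifiers, so limits cover counting error only.

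miRNAs were kept by filterByExpr (minimum count 10, minimum total 15), scaled with TMM and tested with the quasi-likelihood test of edgeR 4.0.16 in R 4.3.3, with Benjamini-Hochberg adjustment over all 800. Standard errors are the log2 value divided by the square root of F. Arm ratios and ratios of neighbours, with 0.5 added to each count, were tested with limma 3.58.1, and ratios between members with an exact permutation test. The edgeR fit and the limma fits of arm ratios and of neighbour ratios were tried on simulated data. Positions come from GENCODE release 44 and RefSeq GRCh38.p14; hairpins were matched to a GENCODE gene by name (515 matched 1 gene), and Python 3.11.15 was used.

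The members and lists were chosen with earlier results of these data known. Named were the 6 members, both arms of miR-3184, the highest, the lowest and the 2 values nearest 0 of the other references, the 3 nearest profiles of each member and the largest called arm change in each direction; miR-103a-3p, and the miRNAs in the closing observations, were named after their values were seen. The other references were miR-16-5p, miR-93-5p, miR-103a-3p, let-7a-5p, let-7d-5p, let-7i-5p, miR-24-3p, miR-23a-3p, miR-25-3p, miR-26a-5p, miR-92a-3p, miR-30e-5p, miR-151a-3p, miR-181a-5p, miR-186-5p, miR-320a, miR-345-5p, miR-361-5p and miR-484. Alternatives were other scalings, filters, pseudocounts and thresholds, DESeq2 1.42.0, diffSpliceDGE, the replicate block and leaving out each library. Replicates of a group differed by more than sampling noise (chi-square over degrees of freedom between 18.0 and 108).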

Additional observations from a re-analysis of the deposited data

How the results depend on the processing

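With TMM, DESeq2 size factors, upper-quartile factors or total counts, both other filters, the DESeq2 test and the stricter threshold, and on leaving out any 1 library, the log2 enrichment of miR-191-5p (1.35 to 1.69 with a library left out), of miR-425-5p (-3.02 to -2.80) and of miR-425-3p (-2.73 to -2.45) kept its direction and its call. Scaling to a member fixes that member at no change. The arm ratio of miR-191 stayed called toward 5p with pseudocounts of 1 and 5, in diffSpliceDGE, under the filter of 10 counts in all libraries and on leaving out any 1 library. Ratios between members kept their direction with a pseudocount of 5 and with each library left out, where the exact permutation test cannot pass the threshold, and limma across neighbouring pairs, run for miR-191-5p over miR-425-5p alone, called it at 4.46. miR-191-3p, not called in the reported fit, was 0.76 with upper-quartile factors and 1.00 with total counts, past the threshold in both, and lay between -0.34 and 0.08 with each library left out, the highest value (0.076) coming without m7G-RIP replicate 3. Scaled to miR-191-5p it was -1.70, and scaled to miR-425-5p 2.77, where miR-425-3p was 0.31 and not called.

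The number of enriched miRNAs, 321 of 800 tested, was 182 of 426 tested with at least 10 counts in every library. It was 129 scaled to miR-191-5p and 587 scaled to miR-425-5p. The number depleted, 305, fell to 75 scaled to miR-425-5p, to 175 under the filter of 10 counts, which tests fewer miRNAs (426), and to 198 with total counts. Calls were 51.3% enriched with TMM, 69.1% with total counts, 64.8% with upper-quartile factors and 43.1% without a filter, and the median shifts were 1.09, 0.82 and -0.31 for the last 3. Hairpins moving toward 5p were 91 of 194 tested, and 47 of 92 tested with at least 10 counts in every library, so the lower number goes with fewer hairpins tested.

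The replicate block gave 296 enriched and 295 depleted miRNAs and changed no call of a member. Deviations of same-numbered libraries correlated at -0.01, -0.03 and 0.06. With 3 libraries a group these values cannot decide whether same-numbered libraries came from the same RNA. The study's protocol sets part of the RNA aside as input before the antibody is added. With CPM of total counts the coefficient of variation in the input was 3.71% for miR-191-5p, 6.38% for miR-191-3p, 10.2% for miR-425-5p and 6.42% for miR-425-3p, and in m7G-RIP 9.54% for miR-191-5p, 6.17% for miR-425-5p and 3.21% for miR-425-3p. Depth limits miR-191-3p, with 17 to 54 counts in m7G-RIP.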

Other observations

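Of the 78 miRNAs overlapped on the opposite strand at every locus, the 6 with any count were miR-3074-3p, with 140 to 185 input counts and 35 to 67 m7G-RIP counts, miR-3065-3p, with 27 to 39 and 5 to 25, miR-371b-3p, with 5 to 13 and 1 to 5, and miR-203a-5p, miR-338-5p and miR-203b-3p, with at most 7 counts in any library. Their overlap with the partner was 19 or 20 bases. miR-24-3p, another reference miRNA, has 2 loci, of which 1 is overlapped by miR-3074-5p, and its counts were 35356 to 41209 in input libraries and 3476 to 7378 in m7G-RIP libraries. How reads from its 2 loci were divided was not tested.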
